A study of Mus musculus with 64 samples.

Results

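The genes described here are 43 genes of DNA replication, followed in RNA-seq libraries of retinal microglia sorted before and after intravitreal (IVT) injection of an adeno-associated virus, AAV2. They were taken by symbol from the batch-corrected count table, and all 43 were found among its 25239 genes. The mice were *Cx3cr1CreER:R26-tdTomato* heterozygotes on a C57BL/6J background, and all groups, naive ones included, carried this genotype and had received tamoxifen eye drops. Cre driven by the *Cx3cr1* promoter turns on the red fluorescent protein tdTomato in cells that express *Cx3cr1* at the time of tamoxifen, so that long-lived microglia stay labelled. Each library came from 600 tdTomato-high cells of 1 retina. Naive mice were not injected, and no vehicle-injected library was analysed here. The others received AAV2 with no transgene at 1e10 genome copies per eye, in a genome that carries a short TLR9-inhibitory sequence, and were collected at day 12 (D12) or day 28 (D28). With both sexes counted together there were 7 naive, 8 D12 and 7 D28 libraries at 3 months, 5, 7 and 7 at 9 months, and 7, 7 and 7 at 18 months. Each group of 1 sex, age and day held between 2 and 4 libraries.

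A dividing cell copies its genome in S phase. Origins are marked by the origin recognition complex, to which *Cdc6* and *Cdt1* load the ring-shaped MCM2-7 helicase; *Cdc45*, the GINS complex and *Mcm10* turn the loaded ring into a working helicase. Polymerases then extend primers made by primase, held to the template by the sliding clamp PCNA that replication factor C loads, while replication protein A coats single strands and *Fen1* and *Lig1* join the fragments of the lagging strand. Most of these genes are transcribed at the G1/S boundary under E2F factors. Adult microglia of an uninjured retina divide rarely, and microglia can divide after injury or inflammation.

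The 43 genes were placed in 9 classes by role. These are the MCM2-7 helicase with 6 genes, origin recognition and licensing with 3, helicase activation with 6, the clamp and clamp loader with 6, single-strand binding with 3, polymerases and primase with 9, lagging-strand (Okazaki fragment) maturation with 2, nucleotide supply with 5, and chromatin assembly and maintenance with 3. For 36 of the 43 genes RefSeq gave a promoter window on GRCm38.p6, from 250 bases before to 50 after a transcription start. An E2F motif, searched on both strands as TTTCCCGC, TTTGGCGC, TTTCGCGC or TTTGCCGC with overlapping matches counted, was found in 15 of these 36 genes (41.7%) against 2.6% of 27025 genes with a window of the same length. The CCAAT box, searched as CCAAT, was in 61.1% of them against 41.1% of all genes, and the CHR element of late cell cycle genes, searched as TTTGAA, in 13.9% against 20.2%. 4 promoters of genes that were higher at D12 in older than in young microglia are printed to show what these matches look like, each as the 200 bases before the start on the gene's own strand, with E2F matches in capitals. The first pair belong to the MCM ring, *Mcm6* at chr1:128359706-128359905 (minus strand) and *Mcm5* at chr8:75109309-75109508 (plus strand), and both hold matches that overlap; the other two are the loader *Cdc6* at chr11:98907951-98908150 (plus strand), with 1 match, and the ribonucleotide reductase subunit *Rrm2* at chr12:24708054-24708253 (plus strand), with 0.
Mcm6: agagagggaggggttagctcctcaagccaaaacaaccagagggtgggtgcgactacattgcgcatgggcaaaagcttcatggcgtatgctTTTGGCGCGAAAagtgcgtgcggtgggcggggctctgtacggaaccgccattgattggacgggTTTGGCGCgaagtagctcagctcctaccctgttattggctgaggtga
Mcm5: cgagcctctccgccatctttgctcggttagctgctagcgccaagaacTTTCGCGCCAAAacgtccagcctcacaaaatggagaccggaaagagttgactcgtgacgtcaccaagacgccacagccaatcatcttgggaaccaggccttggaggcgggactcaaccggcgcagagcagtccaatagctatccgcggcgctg
Cdc6: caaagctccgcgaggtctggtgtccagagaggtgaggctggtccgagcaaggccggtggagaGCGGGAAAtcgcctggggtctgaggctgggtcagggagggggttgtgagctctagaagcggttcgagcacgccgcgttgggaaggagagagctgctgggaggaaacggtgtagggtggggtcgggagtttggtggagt
Rrm2: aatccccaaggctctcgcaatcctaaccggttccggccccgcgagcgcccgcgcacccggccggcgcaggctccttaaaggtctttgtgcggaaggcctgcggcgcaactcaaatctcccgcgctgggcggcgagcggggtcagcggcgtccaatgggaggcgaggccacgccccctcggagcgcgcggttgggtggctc
A match is a description of the letters in the window. Of 13 genes with a window that were higher at 9 than at 3 months on D12, 7 held an E2F match, as did 8 of the 23 others.

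The 62 libraries analysed held 1468478 to 9836173 counts (median 4188992). The microglia markers *P2ry12* and *Tmem119* were present in every group, with medians of at least 676 and 382 CPM, counts scaled to a common library size. An 18-month female D28 library was left out by the rule that chose the data, and a 9-month male D28 library was not in the corrected table; these 2 libraries went against their sex labels, and the other 62 did not. Among the 62, a few stood apart. The second 9-month male D12 library and the first and second 18-month female D12 libraries kept summed microglia markers of 29900 to 36400 CPM, where the other D12 libraries at all ages lay at or below 21400 CPM. The first 18-month female naive library had only 25 of the 43 genes detected. It was 1 of the 3 libraries with the fewest genes detected, 11045. The others were the first 9-month female naive library (10505) and the second 3-month male D12 library (11087). Some results are also given without these libraries, but the single fold changes mostly are not.

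The level of the whole set was summarised per library as the replication score, the mean over the 43 genes of log2 CPM with a prior count of 2. Its D12 median was close to the naive median at 3 months and above it at 9 and 18 months. At 3 months the score ran from 2.9 to 3.82 in naive microglia (median 3.14), from 2.83 to 3.58 at D12 (median 3.13) and from 2.68 to 3.38 at D28 (median 2.85). These groups overlapped throughout. At 9 months the naive scores were 3.69, 3.07 and 4.23 in the 3 females and 3.13 and 2.96 in the 2 males, the D12 scores ran from 2.77 to 4.8 (median 4.54), and the D28 scores ran from 2.89 to 3.49 (median 3.03). At 18 months the naive scores ran from 1.83 to 3.45 (median 3.18), the D12 scores from 2.93 to 5.08 (median 3.88) and the D28 scores from 2.81 to 3.27 (median 3.08). Of the 7 D12 libraries, 6 at 9 months and 4 at 18 months scored above every 3-month D12 library, while the remaining ones lay within the 3-month range or, at 9 months, below it.

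**Figure D1:**
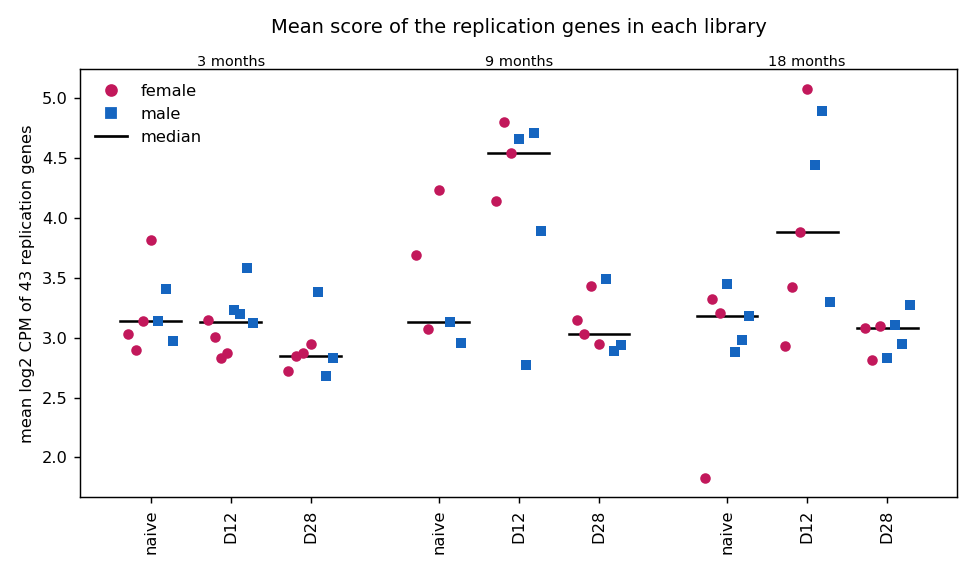
Replication score of each library, the mean log2 CPM of 43 replication genes, plotted by age and day with 1 point per library, sex by marker and a bar at each group's median. The D12 medians are 3.13 at 3 months, 4.54 at 9 months and 3.88 at 18 months, with 1 library at 9 months at 2.77 and a wide spread at 18 months.

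The difference between the mean D12 score and the mean naive score was taken in each sex and averaged over the sexes. It was -0.07 at 3 months, 0.89 at 9 months and 1.06 at 18 months. The pooled SD of the libraries was 0.26, 0.53 and 0.61. The D28 differences were -0.29, -0.23 and 0.06. The 2 days on which retinas were collected were the batch in the authors' correction. On the first and second collection day, the median D12 score was 3.22 (n = 4) and 2.94 (n = 4) at 3 months, 4.4 (n = 4) and 4.54 (n = 3) at 9 months, and 3.42 (n = 3) and 4.39 (n = 4) at 18 months, against naive medians of 3.03 and 3.28, 3.41 and 3.07, and 2.88 and 3.2. The D12 median was thus above the naive one on both collection days at 9 and 18 months, and on 1 of the 2 at 3 months. In such bulk samples, more cells in S phase and more RNA per cell cannot be told apart, nor can a change in the sorted cells from a change in the mix of cells.

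D12 was compared with naive microglia at each age by edgeR's quasi-likelihood test against a log2 fold change of 1 (glmTreat), with the sexes averaged. At 3 months none of the 40 genes tested passed at a Benjamini-Hochberg adjusted p under 0.05, where 4.64% of all 12002 genes did, and 1 gene had an unadjusted p under 0.05. DESeq2 also called 0. *Orc1*, *Cdc6* and *Pole* were too low for the test at this age. The median log2 fold change of the 40 was -0.03, against -0.02 over all genes, with 17 above 0 and a range of -1.69 to 1.01. Thymidine kinase *Tk1*, which salvages thymidine in S phase, had the highest value. It stood at 1.27 to 12 CPM in the naive libraries (median 6.51) and at 6.93 to 23.6 CPM at D12 (median 12.7), a log2 fold change of 1.01 ± 0.44 (SE). The groups overlapped. *Pole2*, a subunit of the leading-strand polymerase epsilon, had the lowest value, at 2.11 to 8.2 CPM in naive microglia (median 5.56) and 0 to 3.34 CPM at D12 (median 1.62), or -1.69 ± 0.57 with an adjusted p of 0.445 in the same edgeR test.

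The other genes named by the rule at 3 months were the member of each class with the smallest p. *Mcm4* of the MCM ring was at 6.04 to 13 CPM in naive (median 12.2) and 1.68 to 12.4 CPM at D12 (median 6.78), and the licensing factor *Cdt1* at 4.86 to 12.6 (median 6.47) and 3.34 to 19.1 CPM (median 6.19). *Gins2*, a GINS subunit, was at 4.2 to 13.9 CPM in naive (median 7.07) and 5.85 to 25.5 CPM at D12 (median 13.7). *Rfc2*, a clamp loader subunit, was at 61.9 to 104 CPM in naive (median 73.5) and 96.1 to 140 CPM at D12 (median 117), with 2 of 7 naive libraries above the lowest D12 one. None of these 4 passed the test, with log2 fold changes of -0.55 ± 0.38, -0.08 ± 0.43, 0.96 ± 0.35 and 0.59 ± 0.13. The single-strand binding gene *Rpa3* had 0.29 ± 0.2, the ligase *Lig1* -0.36 ± 0.29 and the histone chaperone subunit *Chaf1b* 0.85 ± 0.79, without a call. When the difference was tested against no change instead of a log2 fold change of 1, *Gins2* and *Rfc2* were higher and *Pole2* lower at 3 months, 3 of 40 genes where 23.8% of all genes passed.

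At 9 months 1 of the 43 genes, *Uhrf1*, rose at D12 under the same edgeR test, where 2.83% of 12364 genes rose and 3.93% rose or fell. *Uhrf1* brings the maintenance DNA methyltransferase to newly copied DNA. It was counted at 0, 0, 0.481, 2.01 and 0.992 CPM in the 5 naive libraries (3 females, then 2 males), and at 3.13 to 31.2 CPM at D12 (median 20.3). The groups did not overlap, and the log2 fold change was 5.01 ± 1.25 (adjusted p = 0.0287). In counts, the naive libraries held 0, 0, 2, 10 and 7, so the value rests on few reads. The call was lost when any 1 of 7 libraries was left out, with adjusted p from 0.0534 to 0.193 in edgeR; these were male D12 replicates 1 and 3, female D12 replicates 2 and 3, both male naive libraries and female naive replicate 2. In DESeq2 the adjusted p was 0.214. The median log2 fold change of the 43 was 0.71, against 0.04 over all genes, with 38 above 0 and a range of -0.31 to 5.01, and 5 had an unadjusted p under 0.05.

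*Tk1* came next at 9 months. It was at 12.3, 3.0, 11.3, 6.03 and 2.98 CPM in the naive libraries and at 1.56 to 46.2 CPM at D12 (median 35.8), or 2.35 ± 0.55 with an adjusted p of 0.0551 in edgeR, just short of the threshold. The lowest D12 value was that of the second male library. *Rrm2*, the regulated subunit of ribonucleotide reductase, was at 12, 0, 5.53, 4.22 and 0 CPM in naive and 0 to 62.1 CPM at D12 (median 35.3), a log2 fold change of 3.35 ± 1.13 (adjusted p = 0.176). *Cdc45*, a part of the working helicase, had 2.4 ± 0.79 and *Chaf1b* 2.09 ± 0.76, without a call. Tested against no change, 6 genes were higher (*Mcm3*, *Cdc45*, *Lig1*, *Rrm2*, *Tk1* and *Uhrf1*), where 14.8% of all genes passed, and none was lower.

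At 18 months 1 of the 43 genes, *Tk1*, rose at D12, where 2.31% of 11907 genes rose and 3.01% rose or fell. *Tk1* was at 1.99 to 13.9 CPM in naive microglia (median 4.08) and 3.66 to 72.7 CPM at D12 (median 30.9), a log2 fold change of 2.72 ± 0.49 (adjusted p = 0.0115 in edgeR). The groups overlapped. The call was kept when any 1 library was left out, with log2 fold changes from 2.26 to 3.03. The median of the 43 was 1.14, against 0.04 over all genes, with 40 above 0 and a range of -0.43 to 4.06, and 8 had an unadjusted p under 0.05.

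Among genes that did not pass at 18 months, *Mcm10*, which joins the helicase as it starts, had the largest log2 fold change, 4.06 ± 1.21 (adjusted p = 0.115 in edgeR). *Rrm2* was at 0 to 13.6 CPM in naive (median 1.48) and 0 to 83.6 CPM at D12 (median 31.8), or 3.38 ± 1.01 (adjusted p = 0.135). *Gins2* was at 0 to 13.3 CPM in naive (median 8.16) and 2.32 to 68.6 CPM at D12 (median 26.8), or 2.15 ± 0.65. The flap nuclease *Fen1* had 1.76 ± 0.39. Tested against no change, 8 genes were higher (*Gins2*, *Mcm10*, *Pcna*, *Rfc2*, *Rfc5*, *Fen1*, *Rrm2* and *Tk1*), where 14.4% of all genes passed. Without the 3 D12 libraries that kept high microglia markers, 4 of the 43 genes passed the test against a log2 fold change of 1 at 18 months. There 5.19% of all genes did. At 9 months 2 passed, where 5.14% of all genes did. These libraries were left out after the values were seen.

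**Figure D2:**
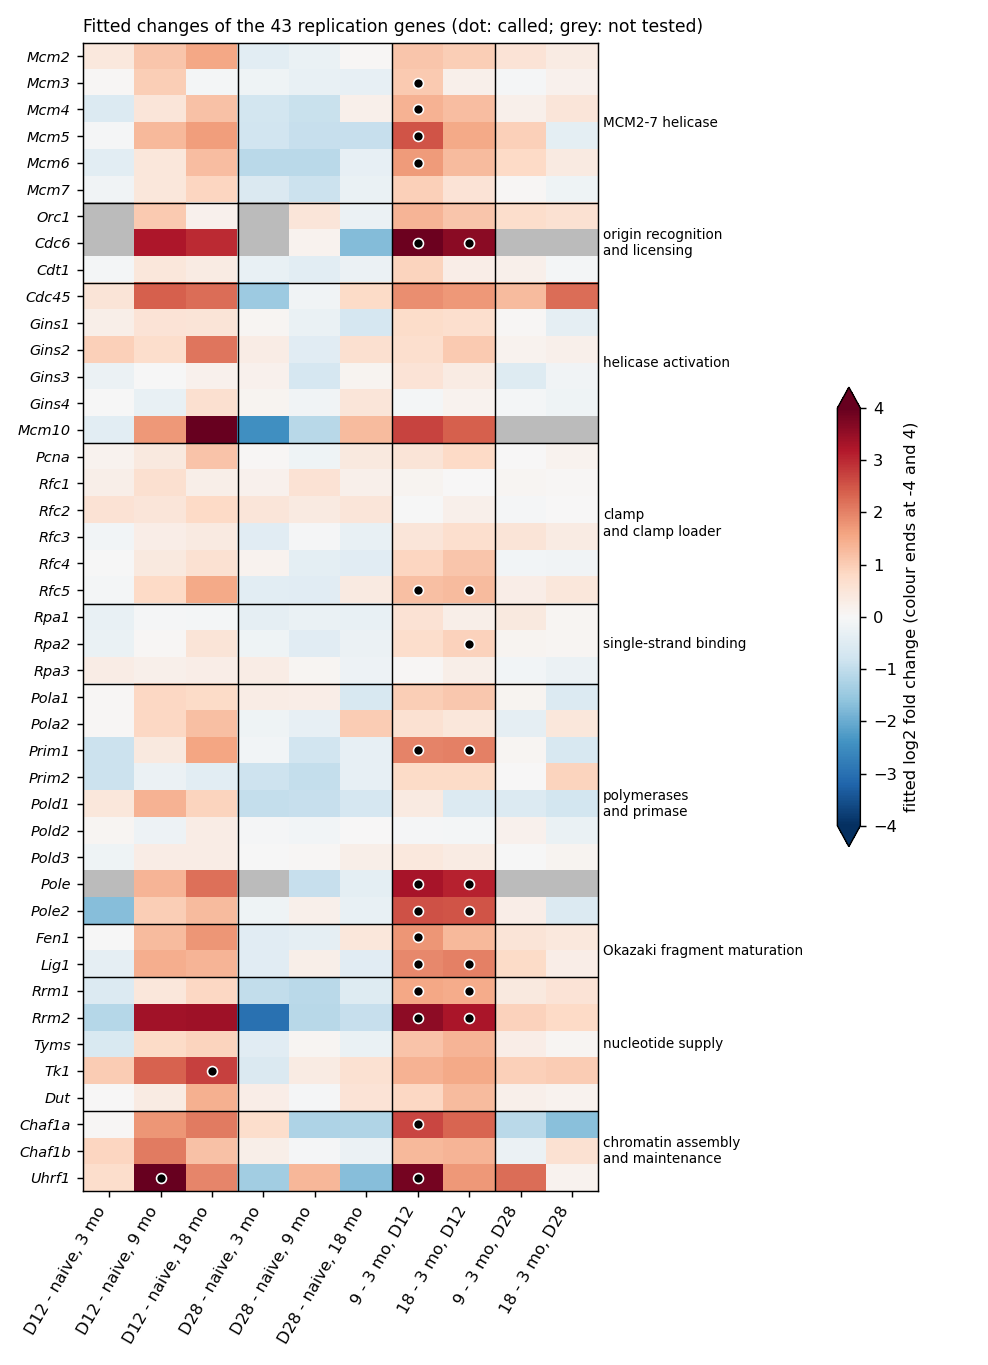
Log2 fold change of each of the 43 replication genes, grouped by role, in the D12 and D28 comparisons with naive at each age and in the age comparisons at D12 and D28, with a white-edged dot on the values that passed the edgeR test of that comparison and grey cells for genes too low to test. At D12 against naive, 0 genes pass at 3 months, *Uhrf1* at 9 months and *Tk1* at 18 months; at D12 between ages, 15 genes pass at 9 against 3 months and 9 at 18 against 3 months.

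At D28 none of the genes passed at any age in the same edgeR test. The share of all genes called was 1% at 3 months, 0.752% at 9 months and 0.521% at 18 months, and the count of replication genes with an unadjusted p under 0.05 was 1, 0 and 0. DESeq2 called 0 at each age. The median log2 fold changes were -0.24, -0.28 and -0.24, with 13 of 40, 12 of 43 and 17 of 43 above 0, against all-gene medians of 0, 0.03 and 0.04. *Tk1* at D28 was at 0.508 to 9.38 CPM at 3 months (median 3.5), 4.17 to 15.2 CPM at 9 months (median 7.14) and 6.2 to 14.3 CPM at 18 months (median 7.41). *Rrm2* had medians of 0.494, 0 and 0.66 CPM at D28 across the ages. These values overlapped those of naive microglia at each age. *Rfc2* was higher at D28 than in naive at 3 months when tested against no change (0.47 ± 0.14), where 6.47% of all genes passed, at 91.3 to 116 CPM (median 110).

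The ages were then compared at D12. The test was edgeR's quasi-likelihood test against no change, at an adjusted p under 0.1, and the 9- and 18-month comparisons share the 3-month D12 libraries. In 9- against 3-month microglia 15 of the 43 genes were higher and none was lower, where 1.71% of 11741 genes were higher and 2.01% were called. The median log2 fold change of the 43 was 1.04, against 0.03 over all genes, with 40 above 0, and 27 had an unadjusted p under 0.05. In 18- against 3-month microglia 9 genes were higher and none was lower, where 1.36% of all genes were higher and 1.68% were called, with a median of 1.10, 41 above 0 and 26 with an unadjusted p under 0.05. The share of all genes with an unadjusted p under 0.05 is not given here, so the counts of 27 and 26 lack a background. Leaving out 1 library at a time left between 2 and 17 genes called at 9 months, and between 0 and 15 at 18 months. At 9 months the count fell to between 2 and 9 without any 1 of 8 D12 libraries, which were 9-month male replicates 1 and 3, 9-month female replicates 2 and 3, 3-month male replicates 1 and 4 and 3-month female replicates 2 and 4. At 18 months it was 0 without 18-month male replicate 1 or 2, 18-month female replicate 4 or 3-month female replicate 3, between 1 and 5 without 3-month male replicate 1 or 4, 3-month female replicate 4 or 9-month female replicate 2 or 3, and 15 without 18-month male replicate 3. With the counts before the authors' batch correction and no batch term, 2 genes were called at 9 months and 0 at 18 months; with the collection day as a term, 13 and 4 were. No call was made in this comparison at 9 months in males alone, or at 18 months in either sex alone. The share of all genes called in these other fits is not given here.

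Averaged within role classes, the D12 medians of mean log2 CPM at 3, 9 and 18 months were 3.3, 4.96 and 3.81 for the MCM2-7 helicase, 0.83, 2.06 and 1.83 for origin recognition and licensing, and 2.82, 3.7 and 3.79 for helicase activation. They were 2.69, 4.18 and 3.22 for polymerases and primase, 3.41, 5.43 and 5.05 for lagging-strand maturation, 3.06, 5.11 and 5.05 for nucleotide supply, and 0.9, 3.46 and 1.78 for the chromatin class. The clamp and clamp loader stood at 5.09, 5.63 and 5.48, and single-strand binding at 4.56, 5.09 and 4.98. In every class the D12 median was lowest at 3 months, while the ranges of the ages overlapped. In naive microglia the medians at these ages were 3.36, 3.94 and 3.14 for the MCM2-7 helicase and 1.05, 0.79 and 1.31 for licensing. Helicase activation had 2.44, 2.71 and 2.36, and polymerases and primase 3.17, 2.99 and 2.94. Lagging-strand maturation had 3.42, 3.74 and 3.39, nucleotide supply 3.34, 3.33 and 3.22, and the chromatin class 0.27, 0.58 and 0.74. The clamp class had 4.96, 4.92 and 5.1, and single-strand binding 4.76, 5.03 and 4.76.

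**Figure D3:**
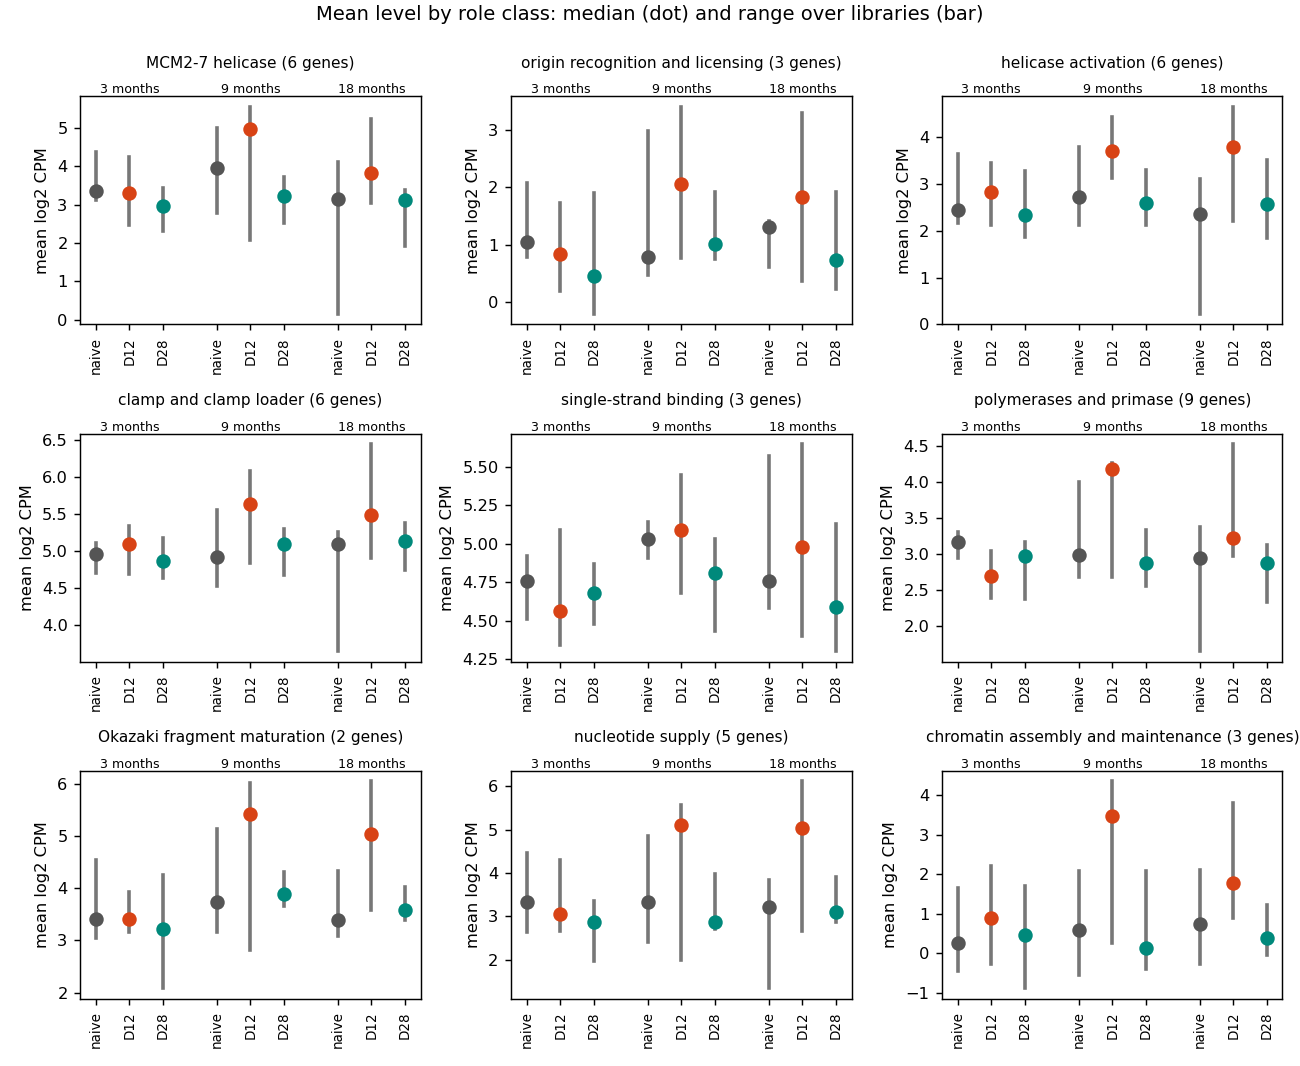
Mean log2 CPM of the genes of each of the 9 role classes by age and day, with a dot at the median over libraries and a bar from the lowest to the highest library, each panel on its own axis. The D12 medians of the MCM2-7 helicase are 3.3, 4.96 and 3.81 at 3, 9 and 18 months, and those of single-strand binding are 4.56, 5.09 and 4.98.

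By role, the MCM2-7 helicase had 4 of 6 genes higher at 9 months and 0 of 6 at 18 months. *Mcm6* was at 1.4 to 22.4 CPM at 3 months (median 13.4), 6.78 to 73.8 CPM at 9 months (median 44.8) and 11 to 55.2 CPM at 18 months (median 26), all at D12. The log2 fold change over 3 months was 1.7 ± 0.45 (adjusted p = 0.0647) at 9 months and 1.26 ± 0.45 (adjusted p = 0.191) at 18 months, the second without a call. Naive libraries also spread widely in *Mcm6*, at 7.35 to 45.1 CPM at 3 months, 6.23 to 71.6 at 9 months and 0 to 33.8 at 18 months. *Mcm5* was at 1.85 to 8.27 CPM at 3 months (median 4.36) and 0 to 51.3 CPM at 9 months (median 26.5), or 2.51 ± 0.63, and *Mcm3* and *Mcm4* had 1.04 ± 0.29 and 1.38 ± 0.4. *Mcm2* and *Mcm7* did not pass, at 1.12 ± 0.5 and 0.94 ± 0.37. Of the licensing genes, *Cdc6* was higher at both ages (3.93 ± 1.0 and 3.61 ± 1.0). It was at 0 to 1.63 CPM at 3 months with a median of 0, 0 to 10.1 CPM at 9 months (median 6.67) and 0 to 10.4 CPM at 18 months (median 2.3). All but 2 of the 8 libraries at 3 months held 0 counts of *Cdc6*, so its fold change depends on the prior count of the fit. None of the 6 genes of helicase activation passed at either age; the largest difference was that of *Mcm10*, 2.71 ± 0.83 and 2.39 ± 0.82.

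Polymerases and primase had 3 of 9 genes higher at 9 months and 3 of 9 at 18 months, *Pole2*, *Prim1* and *Pole* in each comparison. *Pole2* was at 0 to 3.34 CPM at 3 months (median 1.62), 6.05 to 14.9 CPM at 9 months (median 7.46) and 2.09 to 19 CPM at 18 months (median 10.2). The 9-month call was kept when any 1 library was left out, as was that of *Rrm1*. For *Pole2*, every 9-month D12 library exceeded every 3-month one, which held for no other of the 43 genes. The 18-month range overlapped the 3-month one. How many of all genes separate in this way was not counted, and the 3-month D12 libraries held only 0 to 11 *Pole2* counts. The log2 fold change was 2.55 ± 0.54 (adjusted p = 0.033) at 9 months and 2.52 ± 0.54 (adjusted p = 0.0401) at 18 months. *Prim1*, the catalytic primase subunit, was at 0.516 to 11.9 CPM at 3 months (median 5.72), 9.38 to 34.1 CPM at 9 months (median 21.2) and 4.18 to 44 CPM at 18 months (median 21.2), or 1.99 ± 0.48 and 2.02 ± 0.48. *Pole*, the catalytic subunit of polymerase epsilon, was at 0 to 2.55 CPM at 3 months (median 0.238) and had 3.3 ± 0.82 and 3.07 ± 0.82. The subunits of polymerase delta, *Pold1*, *Pold2* and *Pold3*, did not pass at either age, and their values ran from -0.56 to 0.41.

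Both genes of lagging-strand maturation were higher at 9 months and *Lig1* at 18 months. *Lig1* was at 7.34 to 15.3 CPM at 3 months (median 10.7), 3.65 to 81.5 CPM at 9 months (median 38.8) and 7.42 to 105 CPM at 18 months (median 32.8), or 1.91 ± 0.49 (adjusted p = 0.0562) and 2.0 ± 0.49 (adjusted p = 0.0602). *Fen1* was at 4.58 to 21 CPM at 3 months (median 12) and 11.5 to 106 CPM at 9 months (median 30.2), or 1.76 ± 0.43 and, without a call at 18 months, 1.3 ± 0.43. Of the nucleotide genes, both subunits of ribonucleotide reductase were higher at both ages. The large subunit *Rrm1* was at 9.12 to 18.8 CPM at 3 months (median 14.7), 11.5 to 72.9 CPM at 9 months (median 31.7) and 16.2 to 66.5 CPM at 18 months (median 32.1), with log2 fold changes of 1.54 ± 0.32 (adjusted p = 0.033) and 1.47 ± 0.32 (adjusted p = 0.042). Of the 7 D12 libraries, 6 at each older age lay above all 3-month D12 ones. Naive *Rrm1* ran from 7.18 to 48.5 CPM at 3 months, 13.2 to 78.5 at 9 months and 8.48 to 68.8 at 18 months. *Rrm2* was at 0 to 16.9 CPM at 3 months (median 0.835) and had 3.57 ± 0.91 and 3.26 ± 0.91. *Tk1*, *Tyms* (thymidylate synthase) and *Dut* (dUTPase) did not pass, with values from 0.84 to 1.52.

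The clamp and clamp loader had 1 of 6 genes higher at each age, *Rfc5*, at 6.67 to 17 CPM at 3 months (median 11.1), 15.6 to 42.4 CPM at 9 months (median 22.9) and 10.4 to 48.8 CPM at 18 months (median 19.3), or 1.2 ± 0.31 and 1.27 ± 0.31. *Pcna* did not pass (0.52 ± 0.28 and 0.81 ± 0.28), nor did *Rfc2* (-0.01 ± 0.19 and 0.21 ± 0.19). Single-strand binding had *Rpa2* higher at 18 months (0.92 ± 0.26) and no gene at 9 months, and *Rpa3* had 0.04 ± 0.28 and 0.23 ± 0.28. In the chromatin class *Uhrf1* and the histone chaperone subunit *Chaf1a* were higher at 9 months, at 3.82 ± 0.83 (adjusted p = 0.0391) and 2.67 ± 0.74 (adjusted p = 0.0834). *Uhrf1* was at 0 to 3.81 CPM at 3 months (median 0.718) and 0 to 15 CPM at 18 months (median 1.39), and neither *Uhrf1* nor *Chaf1a* passed at 18 months (1.74 ± 0.83 and 2.32 ± 0.74). Whether the 9- and 18-month values differ from each other was not tested.

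The remaining 26 genes passed no test against a log2 fold change of 1 and no age comparison at D12. Their log2 fold changes at D12 ran from -0.08 to 2.71 at 9 against 3 months and from -0.56 to 2.39 at 18 against 3 months. *Pcna*, the clamp itself, was at 22.2 to 51.2 CPM at 3 months (median 39.6), 23.5 to 82.8 CPM at 9 months (median 52.2) and 35 to 119 CPM at 18 months (median 56.8). Its ranges at D12 overlapped at all ages. *Cdc45* was at 0 to 11.5 CPM at 3 months (median 2.7), 3.13 to 16.6 CPM at 9 months (median 9.14) and 1.04 to 17.1 CPM at 18 months (median 6.55), and *Mcm10* at 0 to 5.09, 1.68 to 11 and 0 to 10.9 CPM with medians of 0.382, 4.32 and 4.5. *Tyms*, which makes the thymidine nucleotide, had D12 medians of 17.7, 34.4 and 50 CPM, and *Pola1*, the catalytic subunit of the polymerase that starts each strand, of 15.9, 26.9 and 33.1 CPM. The 18-month ranges, 7.89 to 78.6 and 12 to 73.6 CPM, overlapped the 3-month ranges, 8.43 to 32.4 and 4.82 to 24.2 CPM. Other members had D12 medians that lay close together across the ages. *Gins4* had 43.5, 51.1 and 43.1 CPM, the clamp loader's large subunit *Rfc1* 71.6, 79.8 and 78 CPM, *Rpa1* 27.5, 35.4 and 29.7 CPM, *Pold2* 14.8, 17.2 and 14.6 CPM, and *Cdt1* 6.19, 7.94 and 8.11 CPM at 3, 9 and 18 months.

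**Figure D4:**
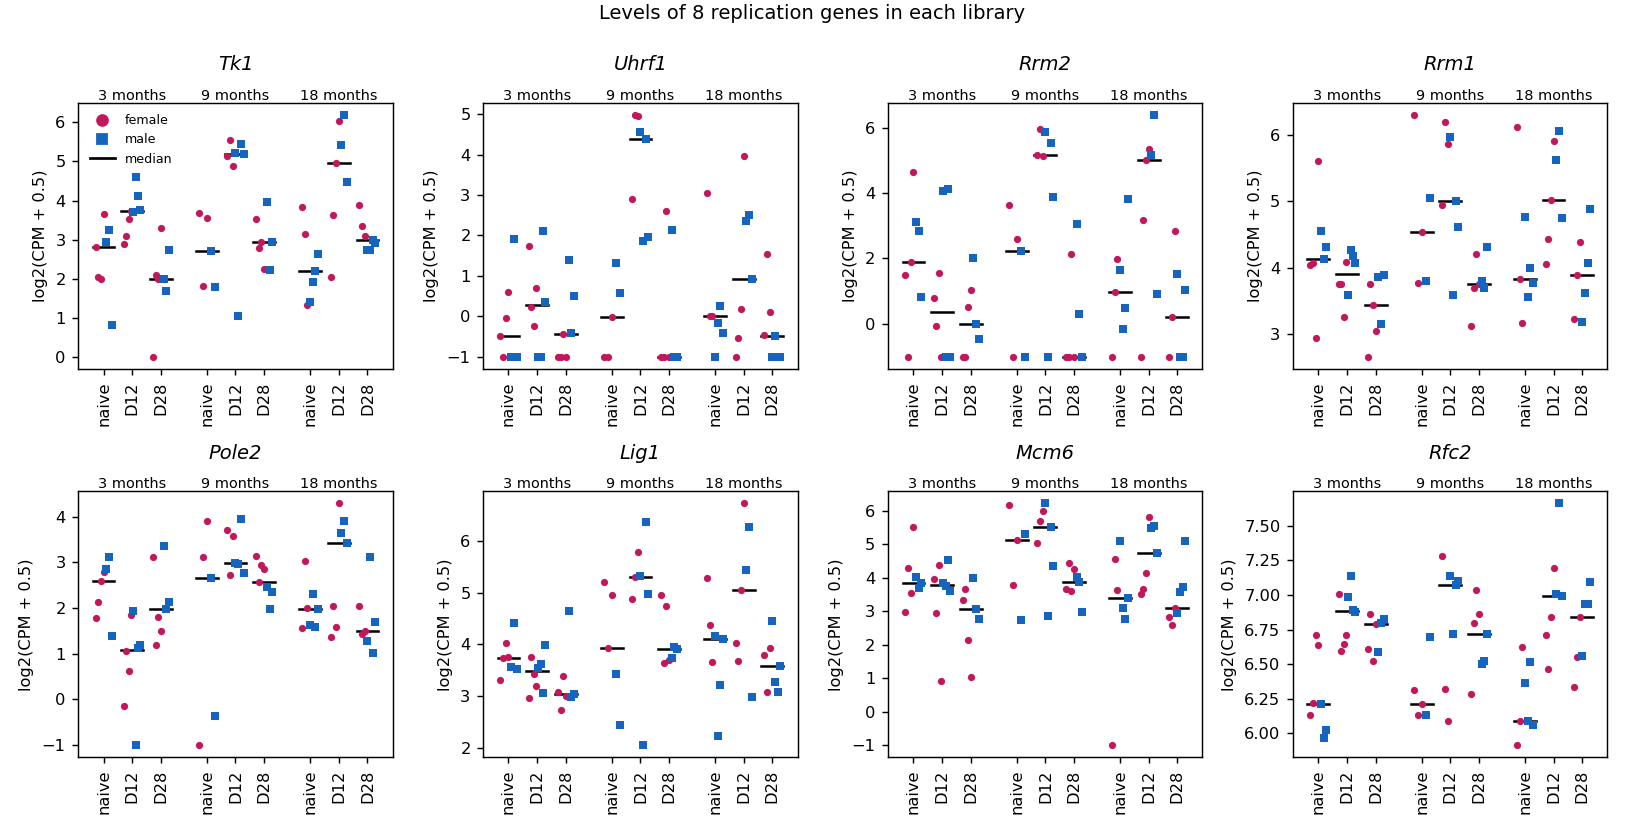
Levels of 8 replication genes in each library on the log2(CPM + 0.5) scale, by age and day, with a bar at each group's median. At D12 the 9-month *Pole2* values all lie above the 3-month ones, *Rrm2* has libraries at 0 in every group and *Uhrf1* in every group but 9-month D12, and *Rfc2* lies between 67.5 and 202 CPM at D12 at every age.

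Whether the D12 change itself differed with age was tested as an interaction in 1 fit over all 62 libraries. None of the 43 genes passed at an adjusted p under 0.1 in edgeR for 9 or 18 against 3 months, where 0.0368% and 0.155% of 13584 genes did. The unadjusted p was under 0.05 for 7 and 14 genes. The share of all genes under this cut is not given here, so these counts lack a background. The median difference in log2 fold change was 0.87 and 1.11, with 38 and 40 of 43 above 0, also without an all-gene median. *Pole2* had the smallest p in both, with a difference of 2.66 ± 0.87 (adjusted p = 0.484) at 9 months and 2.92 ± 0.82 (adjusted p = 0.132) at 18 months in edgeR. *Rrm2* had differences of 4.48 ± 1.59 and 4.47 ± 1.48, without a call. The calls between ages at D12 are therefore not shown to be differences in the response to AAV. In DESeq2, 2 genes passed the 18-month interaction. Without the 3 libraries that kept high microglia markers, 8 did in edgeR, where 2.31% of all genes did. Those 3 scored 2.77, 2.93 and 3.42, and leaving them out raises the D12 level of the older mice. That alternative was chosen after the values were seen, so its count does not decide the question.

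The sexes were compared in the same way. No gene passed for a sex difference in the D12 change, where 0.0583%, 0.00809% and 0% of all genes did at 3, 9 and 18 months, and the unadjusted p was under 0.05 for 3, 4 and 0 genes. DESeq2 called 0 at each age. The mean D12 score was 2.96 ± 0.15 (SD, n = 4) in females and 3.28 ± 0.2 (n = 4) in males at 3 months, 4.49 ± 0.33 (n = 3) and 4.01 ± 0.91 (n = 4) at 9 months, and 3.83 ± 0.92 (n = 4) and 4.21 ± 0.82 (n = 3) at 18 months. Within 1 sex, in fits that held both sexes, 3 calls were made over all comparisons of days and of ages. The share of all genes called within 1 sex is not given here, so these 3 calls lack a background. *Uhrf1* rose in 9-month females (6.99 ± 1.8, edgeR adjusted p = 0.0455), *Tk1* rose in 18-month males (3.6 ± 0.69, adjusted p = 0.0122), and *Rrm1* was higher at D12 in 9- than in 3-month females (2.07 ± 0.47, adjusted p = 0.0695).

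Naive microglia of different ages did not differ in any of the 43 genes past the threshold, and neither did D28 microglia. Among all genes, 0% and 0.0651% were called in naive microglia for 9 and 18 against 3 months, and 0% and 0.22% at D28. The replication genes with an unadjusted p under 0.05 numbered 0 and 0 in naive microglia, and 4 and 4 at D28. DESeq2 called 0 in all 4 comparisons. Their median log2 fold changes were 0.23 and -0.15 in naive microglia and 0.15 and 0.13 at D28. *Cdc6*, *Mcm10* and *Pole* were too low for the D28 fit.

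The 43 genes did not vary alike over the 62 libraries. The correlation of a gene's log2 CPM with the mean of the other members was 0.80 for *Rrm2*, 0.77 for *Pcna* and 0.74 for *Mcm5*, *Mcm6* and *Gins2*. It was 0.15 for *Gins4*, 0.16 for *Pold2*, 0.18 for *Rpa3* and 0.2 for *Gins3*. These correlations are over libraries that share age, day and batch groups, and describe them only. Members with low counts bear most of the zeros. *Cdc6* and *Uhrf1* had 3 counts or fewer in 40 of the 62 libraries, *Mcm10* in 35, *Pole* in 31, *Rrm2* in 27, and *Orc1* and *Chaf1a* in 24 each. Of 11915 genes searched, those outside the set whose log2 CPM ran most like the replication score over the 62 libraries included *Smc2*, a condensin subunit (r = 0.88), *Pclaf*, a PCNA-binding protein (0.84), and *Stmn1*, *Cdk1* and *Asf1b* (each 0.83).

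Other genes of the pathway were counted from fixed lists. Of other replication factors, 4 of 34 tested were higher at D12 at 9 against 3 months and 2 of 34 at 18 against 3 months, and none was lower, with medians of 0.41 and 0.53. Among all genes, 1.71% and 1.36% were higher at D12 at 9 and at 18 against 3 months. At D12 against naive, 0 of 33 passed at 3 months, 0 of 35 at 9 months and 0 of 33 at 18 months. The genes named there by the rule were the histone mRNA-binding *Slbp* (-0.87 ± 0.15 at 3 months), the nuclease *Dna2* (1.41 ± 0.3), the polymerase epsilon subunit *Pole3* (1.17 ± 0.25) and the histone chaperone *Asf1a* (-0.67 ± 0.17). Of E2F and G1/S regulators, 2 of 31 were higher at 9 and 3 of 31 at 18 against 3 months at D12, among them cyclin D1, *Ccnd1*, at 18 months (1.18 ± 0.3). In that list the cell cycle inhibitor *Cdkn1a* rose at D12 at 3 months (2.44 ± 0.33) and 18 months (2.53 ± 0.43), and the related *Cdkn1c* fell at 3, 9 and 18 months (-3.01 ± 0.52, -3.21 ± 0.65 and -4.34 ± 0.66). *Myc*, which drives cell growth, fell at 3 months (-2.26 ± 0.24) and did not pass at 9 or 18 months (-1.54 ± 0.44 and -0.43 ± 0.33). Of other nucleotide metabolism genes, 2 of 23 were higher at 9 months and 0 of 23 at 18 months, and *Samhd1*, which breaks down dNTPs, rose at D12 at all 3 ages (1.82 ± 0.17, 2.15 ± 0.33 and 2.38 ± 0.33).

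A list of 30 mitosis genes was counted in the same libraries. At D12, 22 of 30 were higher at 9 against 3 months and 18 of 30 at 18 against 3 months, with median log2 fold changes of 2.59 and 2.57. Among all genes, 1.71% and 1.36% were higher in these comparisons. Against naive, 1 of 29 rose at 3 months, 9 of 30 at 9 months and 8 of 30 at 18 months. The shares of all genes that rose or fell were 4.64%, 3.93% and 3.01%. The paper had named genes of this list, such as *Top2a* and *Cdca8*, among those higher at 9 than at 3 months on D12. The list is therefore not independent of these results. The mitotic kinase *Plk1* had log2 fold changes at D12 of -2.6 ± 1.17 at 3 months, 4.24 ± 0.95 at 9 months and 3.29 ± 1.08 at 18 months, of which the second passed. The kinesin *Kif2c* rose at all 3 ages (2.05 ± 0.41, 4.84 ± 0.55 and 3.33 ± 0.64). The mean log2 CPM of the 30 mitosis genes was 0.97 to 3.9 at D12 at 3 months (median 2.65), 0.61 to 5.49 at 9 months (median 5.36) and 0.58 to 5.95 at 18 months (median 5.03).

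At D12, some microglia markers fell and some T cell markers rose against naive at every age. The summed level of 10 microglia markers was 32400 to 52800 CPM in naive libraries at 3 months and 14000 to 21400 CPM at D12. At 9 months it was 31600 to 53100 and 9020 to 29900 CPM, and at 18 months 30900 to 45700 and 13100 to 36400 CPM. Of the 10 markers, 5, 4 and 3 fell at D12 at 3, 9 and 18 months. Among all genes, 4.64%, 3.93% and 3.01% rose or fell at D12 at these ages. The 13 T cell markers in the table summed to at most 42.8, 9.62 and 216 CPM in naive libraries, and to 79.5 to 469, 69 to 199 and 3.66 to 518 CPM at D12, and 9 of 11, 11 of 13 and 5 of 13 tested rose. Of markers of monocyte-derived cells, 2 of 4 rose and 1 fell at 3 months, 1 of 6 rose and 1 fell at 9 months, and 0 of 5 passed at 18 months. None of the 9 markers of photoreceptors and other retinal cells passed at D12 at any age. Between ages at D12, no microglia or T cell marker passed, and 1 of 5 markers of monocyte-derived cells (*Plac8*) was higher at 18 than at 3 months; their sums ran from 6.45 to 354, 5.74 to 98.5 and 10.4 to 1090 CPM at D12. Of B cell markers, *Ms4a1*, *Pax5* and *Cd79a* had medians of 0 in all groups, while *Cd79b* had medians of 38.2 to 86 CPM. Of neutrophil markers, *Mpo*, *Elane* and *S100a9* had medians of 0 in all groups, and *S100a8* had 0.312 CPM at D12 and 1.91 CPM at D28 at 18 months and 0 elsewhere. The highest-scoring 18-month D12 libraries, female replicate 4 and male replicates 2 and 1, scored 5.08, 4.89 and 4.44. Their monocyte-derived marker sums were 1090, 406 and 225 CPM, and their T cell marker sums 241, 321 and 226 CPM. The highest-scoring 9-month D12 library, female replicate 2, scored 4.8 with sums of 16.4 and 122 CPM in the same order. The 3-month D12 library with the highest monocyte-derived sum, male replicate 2, scored 3.2 with 354 and 328 CPM. The part of other cells in the replication gene levels was not tested.

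The 3 D12 libraries that kept high microglia markers had replication scores within or below the 3-month D12 range. The second 9-month male D12 library scored 2.77 with a microglia sum of 29900 CPM, a T cell sum of 125 CPM and a mitosis mean of 0.61. The first and second 18-month female D12 libraries scored 2.93 and 3.42, with microglia sums of 36400 and 31600 CPM, T cell sums of 3.66 and 15.3 CPM and mitosis means of 0.58 and 2.5. Without these 3 libraries, 26 of the 43 genes were called at D12 at 18 against 3 months, instead of 9, where 6.05% of all genes were called in that fit, instead of 1.68%. This alternative was chosen after the values were seen.

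**Figure D5:**
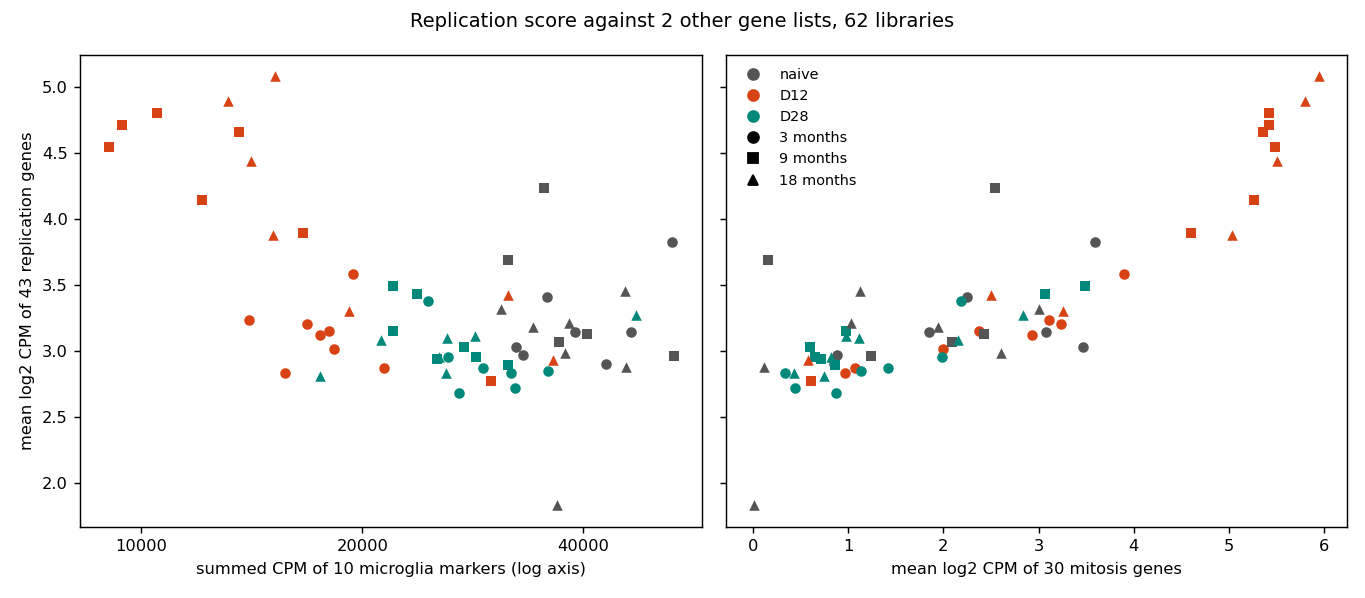
Replication score of each of the 62 libraries against the summed CPM of 10 microglia markers (log axis) and against the mean log2 CPM of 30 mitosis genes, coloured by day with the age by marker shape. D12 libraries with microglia sums of 29900 CPM or more score between 2.77 and 3.42, and the libraries with a mitosis mean above 4 score 3.88 or more.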

How the data were processed

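RNA-seq libraries of sorted retinal microglia were analysed from single retinas of naive, D12 and D28 mice at 3, 9 and 18 months. The authors amplified cDNA with SMART-Seq v4 (16 cycles), made Nextera XT libraries from 150 pg and sequenced them single-end. Reads were aligned by them to mm10 with STAR 2.7.8a, and featureCounts with the refGene annotation gave counts per gene. The deposited counts, whole numbers for 25239 genes, come uncorrected for 64 libraries and for 63 after ComBat_seq with collection day as batch (27 and 35 of the 62 libraries used). Whether its model held the groups is not given in the sources used here. The corrected counts were used unless stated.

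The sexes, ages and days came from the labels; 1 18-month male library with 2 day labels was placed at D28 by its title. Library sizes were scaled by TMM and low genes removed by filterByExpr (edgeR 4.0.16, R 4.3.3). A mean per sex and day was fitted within each age, per sex and age within each day, or for all 18 groups in interactions. Day contrasts used glmTreat against a log2 fold change of 1 (adjusted p under 0.05), the others glmQLFTest (adjusted p under 0.1), adjusted over all genes tested. SEs were taken from the log2 fold change and its F statistic. Counts of genes with an unadjusted p under 0.05 stand without the share of all genes and are a description only. p-values measure the spread between retinas, and counting error is the only part the 3-count floor (at or below 3 reads per library) covers. No pair of libraries was identical among 79 within groups. The steps were tested on simulated data.

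The replication genes, roles and other gene lists were chosen with earlier results of these data known. The named genes were the smallest p of each class at 3 months plus *Uhrf1*; other genes were added after their values were seen. Alternatives were DESeq2 1.42.0, its size factors, no filter, uncorrected counts with and without collection day, the replicate number as block, each sex alone, 1 fit of all libraries, a test against no change, another placing of the library with 2 day labels, and each library left out; leaving out the 3 libraries with high microglia markers and the 3 with the fewest genes was added later. Some genes that these rules or lists hold are not reported here.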

Additional observations from a re-analysis of the deposited data

Results flagged for a closer look

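Within groups of 1 age and day with both sexes together, 9 of 99 sets of values held a library far from the rest by Dixon's criterion. The sets share libraries and genes, so this count cannot be set against a rate expected by chance. All values in this paragraph are replication scores or log2 CPM. The score of the first 3-month male D28 library was 3.38, against 2.68 to 2.95 in the other 6 libraries of that age and day, and its *Lig1* was 4.64 against 2.72 to 3.38. The first 18-month female naive library scored 1.83 against 2.88 to 3.45, had *Mcm4* at -1.09 against 2.79 to 4.09, and had *Uhrf1* at 3.04 against -1.09 to 0.2. The second 9-month male D12 library had *Lig1* at 2.04 against 4.87 to 6.36, *Tk1* at 1.02 against 4.88 to 5.54, and *Chaf1b* at -0.01 against 3.15 to 4.2. The fourth 3-month female naive library had *Chaf1b* at 3.28 against 0.22 to 1.39.

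The 18-month female D28 library left out of all comparisons had a replication score of 4.18 in the uncorrected counts, above the 1.7 to 3.41 of the 7 naive libraries of that age on the same scale. It is 1 of the 2 libraries whose sex-linked genes went against their labels.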

How the results depend on the processing

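Replicate numbers did not pair libraries: their deviations from the group means correlated at -0.02 on average over 135 same-numbered pairs and at 0.007 over 398 others. With the replicate block, 11 genes were called at D12 at 9 against 3 months and 5 at 18 against 3 months, instead of 15 and 9. No called gene changed direction under any alternative run; of the score differences, that of D12 at 3 months and that of D28 at 18 months changed sign when 1 library was left out, the latter also without the 3 libraries with the fewest genes (-0.18). With the library that has 2 day labels placed at D12, 13 genes were called at 9 against 3 months and 6 at 18 against 3 months, and 5 of 25 calls were lost. In 1 fit of all libraries the counts were 10 and 8, and 9 of 26 calls were lost.

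For D12 against naive, a test against no change gave 3 genes at 3 months, 6 at 9 months and 8 at 18 months; the count at 9 months was 0 with DESeq2, in females alone and in males alone, 2 with DESeq2's size factors, in 1 fit of all libraries, without the 3 libraries with high microglia markers and without the 3 with the fewest genes, and 3 with no filter. At 18 months it was 2 with no filter, 0 in females alone and 4 without the 3 libraries. For D28 at 3 months it was 1 with no filter and 1 against no change. At D12, 9 against 3 months gave 2 genes with uncorrected counts and no batch term, 2 in females and 0 in males. At 18 against 3 months the count was 17 with DESeq2, 20 with no filter, 0 and 4 with uncorrected counts without and with collection day, 0 in each sex alone and 26 without the 3 libraries. The 9-month interaction had 3 genes with no filter; the 18-month one had 2 with DESeq2 (6 genes with no adjusted p), 10 with no filter, 8 without the 3 libraries with high microglia markers and 1 without the 3 with the fewest genes. The sex difference at 9 months had 1 with no filter. Shares of all genes called in the fits of this section are not given, so whether other genes lost calls alike is not shown. The cause was not tested.

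With 1 library left out at a time, the count ran from 0 to 2 for D12 at 9 months, 0 to 3 for the 18-month interaction, 2 to 17 for 9 against 3 months and 0 to 15 for 18 against 3 months. The calls of *Pole2* and *Rrm1* at 9 against 3 months and of *Tk1* at 18 months were kept in every such fit; the other 23 were lost in 1 or more of them. At 9 against 3 months the count was 7 and 4 without the first and the fourth 3-month male D12 library, 9 and 5 without the second and the fourth 3-month female, 3 and 6 without the first and the third 9-month male, and 3 and 2 without the second and the third 9-month female. At 18 against 3 months it was 1 and 2 without the first and the fourth 3-month male, 0 and 3 without the third and the fourth 3-month female, 0, 0 and 15 without the first, the second and the third 18-month male, 0 without the fourth 18-month female, and 5 without the second or the third 9-month female, which share the fit. Score differences of D12 from naive ran from -0.13 to 0.03 (the 0.03 without the fourth 3-month female naive library), 0.75 to 1.1 and 0.82 to 1.29 at 3, 9 and 18 months, and those of D28 from -0.4 to -0.2, -0.38 to -0.09 and -0.18 to 0.2, the -0.18 without the first 18-month female naive library. *Cdc6* and *Uhrf1* had 3 counts or fewer in 40 of 62 libraries, so their values rest on few reads there.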
